A study of Mus musculus with 43 samples.

Results

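The mouse genome names a large set of zinc finger genes Zfp followed by a number, and the 240 of them with appreciable transcript in control or MTF2 knockout E14 embryonic stem cells are described here. They were selected on measured values: a symbol made of Zfp and digits only, Zfp42 left out, and an FPKM of at least 1 in the control or in the knockout cells, whichever was higher. FPKM is the number of RNA-seq fragments scaled to transcript length and library size. The table held 365 such symbols among 22462 genes, 240 passed, and 11997 genes of any name reached the same level. Because the values that chose the members come from the contrast described below, counts and medians over the members are descriptions and no test was made over them.

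The study profiled MTF2, SUZ12 and H3K27me3 by ChIP-seq and poly(A) RNA by RNA-seq in E14 mouse ES cells grown on gelatin with LIF. The RNA-seq part compared control cells with cells labelled as MTF2 knockout, 3 libraries per group, which the series calls biological replicates. The 36 ChIP-seq samples and 1 input, which include knockout cells given back wild-type or K339A MTF2, were not analysed here. How the knockout was made and whether each group is 1 clone are not stated in the labels.

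Most Zfp genes encode proteins with arrays of C2H2 zinc fingers, each finger reading a few bases of DNA, and many also carry a KRAB domain. KRAB recruits TRIM28 (KAP1), which brings in SETDB1, HP1 proteins and histone deacetylases, so that the bound site, often a retrotransposon, is packed into H3K9me3 chromatin. These genes arose by tandem duplication and lie in clusters of near relatives, while a minority of Zfp symbols belong to unrelated RNA-binding, ribosomal or ubiquitin-ligase proteins that share only a finger. MTF2 is an accessory subunit of Polycomb repressive complex PRC2, and it helps bring PRC2 and H3K27me3 to CpG-rich DNA.

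A larger share of these genes' promoters than of other promoters held 1 sequence, and it is shown first because many genes in the runs of neighbours described below have it. It is ACTACANNTCCC, the core of a site read by the zinc finger activator ZNF143, whose mouse gene Zfp143 is itself a member. The form of the motif was settled after the promoters had been searched with a shorter one, so its shares are descriptions. RefSeq (GRCm38.p6) gave a 300-base promoter, 250 bases before to 50 after the first listed start, for 196 of the 240 members, and 42 of these genes had several starts. The site, on either strand, was in 32 of the 196 promoters, or 16.3%. Among all expressed genes 4.61% of promoters of the same length held it, and among all 27025 promoters 1.98%. It was as frequent in the Zfp genes below 1 FPKM (17 of 104, 16.3%) as in the members, and it was in none of the 32 promoters of expressed Zbtb genes, which encode another class of zinc finger factors. Expressed Zscan and Zkscan genes, which often lie in the same kind of cluster, held it in 2 of 14 promoters (14.3%). In members that lie in runs of 3 or more neighbours it reached 28.4% (21 of 74 promoters), against 9.02% in the remaining members. The 32 genes lie in only 15 places of the genome, 10 of them in a single run on chromosome 7. Neighbours of this kind arose by duplication, so the 32 are not independent observations.

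The following lines give the 250 bases before the start, 5′ to 3′ on the gene's own strand, with ACTACANNTCCC or its reverse complement in capitals and the rest in lower case. The first 6 are neighbours in the chromosome 7 run of 15 members, among them the called genes Zfp566 and Zfp260, Zfp93 comes from another run on chromosome 7, and Zfp358, on chromosome 8, had the largest ratio of the called genes.
Zfp84 (chr7:29768302-29768551, plus strand): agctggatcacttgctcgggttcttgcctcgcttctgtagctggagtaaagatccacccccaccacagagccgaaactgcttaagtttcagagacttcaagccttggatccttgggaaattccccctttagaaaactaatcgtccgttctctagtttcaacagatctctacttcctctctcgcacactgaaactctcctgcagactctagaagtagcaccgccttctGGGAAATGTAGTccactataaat
Zfp420 (chr7:29859762-29860011, plus strand): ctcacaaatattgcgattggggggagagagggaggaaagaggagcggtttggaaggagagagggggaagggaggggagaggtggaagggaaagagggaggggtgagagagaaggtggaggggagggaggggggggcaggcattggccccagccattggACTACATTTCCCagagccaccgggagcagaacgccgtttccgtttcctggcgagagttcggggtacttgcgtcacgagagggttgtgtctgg
Zfp74 (chr7:29954066-29954315, minus strand): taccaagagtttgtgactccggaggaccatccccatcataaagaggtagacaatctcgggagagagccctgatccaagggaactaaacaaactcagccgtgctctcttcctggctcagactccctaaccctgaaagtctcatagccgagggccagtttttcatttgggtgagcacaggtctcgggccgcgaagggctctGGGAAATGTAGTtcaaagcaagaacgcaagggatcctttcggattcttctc
Zfp14 (chr7:30051397-30051646, minus strand): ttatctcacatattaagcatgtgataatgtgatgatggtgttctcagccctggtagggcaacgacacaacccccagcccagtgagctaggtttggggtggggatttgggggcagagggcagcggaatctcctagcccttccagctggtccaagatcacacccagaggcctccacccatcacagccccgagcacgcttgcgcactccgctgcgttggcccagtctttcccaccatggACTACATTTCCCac
Zfp566 (chr7:30090511-30090760, minus strand): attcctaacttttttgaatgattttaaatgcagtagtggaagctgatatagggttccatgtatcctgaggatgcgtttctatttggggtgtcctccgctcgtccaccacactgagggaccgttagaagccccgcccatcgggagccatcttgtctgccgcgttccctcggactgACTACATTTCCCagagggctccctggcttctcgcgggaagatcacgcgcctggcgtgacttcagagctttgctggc
Zfp260 (chr7:30094826-30095075, plus strand): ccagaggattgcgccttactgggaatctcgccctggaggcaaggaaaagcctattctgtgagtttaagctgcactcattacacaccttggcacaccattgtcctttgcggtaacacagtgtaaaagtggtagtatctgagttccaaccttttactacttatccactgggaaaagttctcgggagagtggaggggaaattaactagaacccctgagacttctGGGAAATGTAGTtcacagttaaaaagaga
Zfp93 (chr7:24270168-24270417, plus strand): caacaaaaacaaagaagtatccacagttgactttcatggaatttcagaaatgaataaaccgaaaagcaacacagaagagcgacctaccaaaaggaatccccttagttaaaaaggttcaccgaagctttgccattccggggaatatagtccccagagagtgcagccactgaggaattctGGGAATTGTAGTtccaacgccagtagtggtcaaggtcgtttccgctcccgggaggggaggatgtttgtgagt
Zfp358 (chr8:3492888-3493137, plus strand): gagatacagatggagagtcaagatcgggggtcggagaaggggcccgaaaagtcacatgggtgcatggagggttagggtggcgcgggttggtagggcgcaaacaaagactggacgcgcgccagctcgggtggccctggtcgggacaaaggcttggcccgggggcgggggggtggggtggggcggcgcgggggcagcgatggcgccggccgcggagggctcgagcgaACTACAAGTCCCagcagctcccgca
In these 8 promoters the site ended 2 to 80 bases before the start, and in 31 of the 32 promoters it lay before the start. The remaining promoter, that of Zfp2, held it just after the start.

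Motifs of other promoter factors were searched on both strands in the same way. A CCAAT box (CCAAT) was in 46.9% of member promoters and 39.1% of those of all expressed genes, and a YY1 site (AAGATGGC) in 7.65% and 5.05%. An NRF1 site (GCGCATGC) was in 6.12% and 5.81%, a TATA box (TATAAA) in 6.12% and 6.44%, and a GC box (GGGCGG) in 48.5% and 66.7%. None of these motifs contains or lies within ACTACANNTCCC. A match says only that the letters are present.

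The 32 members with the site had a median of 2.83 FPKM over both groups and a median log2 ratio of 0.43, with 24 above 0 and 8 below. The other 164 members with a promoter had a median of 4.65 FPKM and a median log2 ratio of 0.09, so the site-bearing genes were also the lower ones. At 1 FPKM or more in both groups the medians were 0.17 (25 genes) and 0.01 (130 genes). A log2 ratio here is log2 of the knockout over the control FPKM after 0.5 FPKM was added to each, which understates the change of low genes. The gene for the factor itself, Zfp143, went from 13.5 to 17.9 FPKM and was not called. Zfp523, the mouse counterpart of human ZNF76, a close relative of ZNF143 that reads the same kind of site, went from 10.6 FPKM in control to 19.3 in knockout cells and was called higher.

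The knockout cells still held Mtf2 transcript, which went from 74.3 FPKM in the controls to 44.7 (q = 0.0496 in the authors' deposited table). The 7 ES cell markers summed to 3703 FPKM in control and 3208 in knockout, with Tfcp2l1 called higher and none lower. The 7 primitive endoderm markers summed to 12.7 and 372 FPKM, 6 of them called higher and none at 0 in either group. The 6 fibroblast markers summed to 44.2 and 31.0 FPKM, Col3a1 and Postn being at 0 in both groups. Fbln1 made up most of that sum and was called lower (38.9 to 18.5 FPKM), while Thy1 (5.14 and 11.4), Col1a1 (0.142 and 0.773) and Col1a2 (0.0599 and 0.241) were not called. The part of the endoderm transcripts in the Zfp values was not tested, and in bulk RNA fewer cells of a type and less RNA per cell cannot be told apart.

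Few Zfp genes were called, in shares below those of the table as a whole. By the authors' deposited table (status OK and q, the adjusted p-value, at or under 0.05), 11 of the 213 tested members were higher in the knockout and 5 lower, or 5.16% and 2.35%, against 6.9% and 6.03% of the 11362 genes tested. The members were also lower, with a control median of 4.10 FPKM against 9.99 for all expressed genes. In mean FPKM ranges divided at 2, 5, 10 and 20, 2.50%, 3.28%, 14.3%, 6.25% and 13.2% of tested members were called. Among all tested genes in those ranges the shares were 5.94%, 7.51%, 12.2%, 13.7% and 17.6%. When p was instead read from the test statistic by the normal distribution and adjusted over all tested genes, no member was called in either direction, against 0.836% of all tested genes higher and 0.255% lower. The q of the 16 called members ran from 0.00120 to 0.0494 in the authors' deposited table, and 27 members were marked there as not tested. At q of 0.01 or less the counts were 5 and 0, against 3.86% and 2.96% of all tested genes, and among calls of at least 2-fold they were 9 and 2, against 4.99% and 2.92%. Unadjusted p-values under 0.05 in the authors' deposited table were found for 44 tested members (28 higher, 16 lower), or 20.7%, beside 25.7% of all tested genes. Since the table gives 1 pooled value per gene and group, no spread over the 3 libraries can be given for any FPKM, and the depth of the libraries is unknown.

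Summed over the 240 members, transcript was nearly level, at 2759 FPKM in control and 2687 in knockout cells. Individual ratios spread on both sides: 138 members lay above 0 and 102 below, with a median of 0.09, quartiles of -0.26 and 0.64 and an SD over genes of 0.74. All 11997 expressed genes had a median of 0.01, quartiles of -0.40 and 0.49 and an SD of 0.87. The distance between quartiles was 0.90 for the Zfp genes and 0.89 for all expressed genes, and 19.6% and 17.4% had a log2 ratio of 1 or more in size. Below a mean of 2 FPKM this distance was 1.11 for members against 1.47 for all expressed genes. It was 1.06 against 1.04 from 2 to 5, 0.82 against 0.89 from 5 to 10 and 0.47 against 0.72 from 10 to 20. At 20 FPKM and over it was 0.46 against 0.68.

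**Figure D1:**
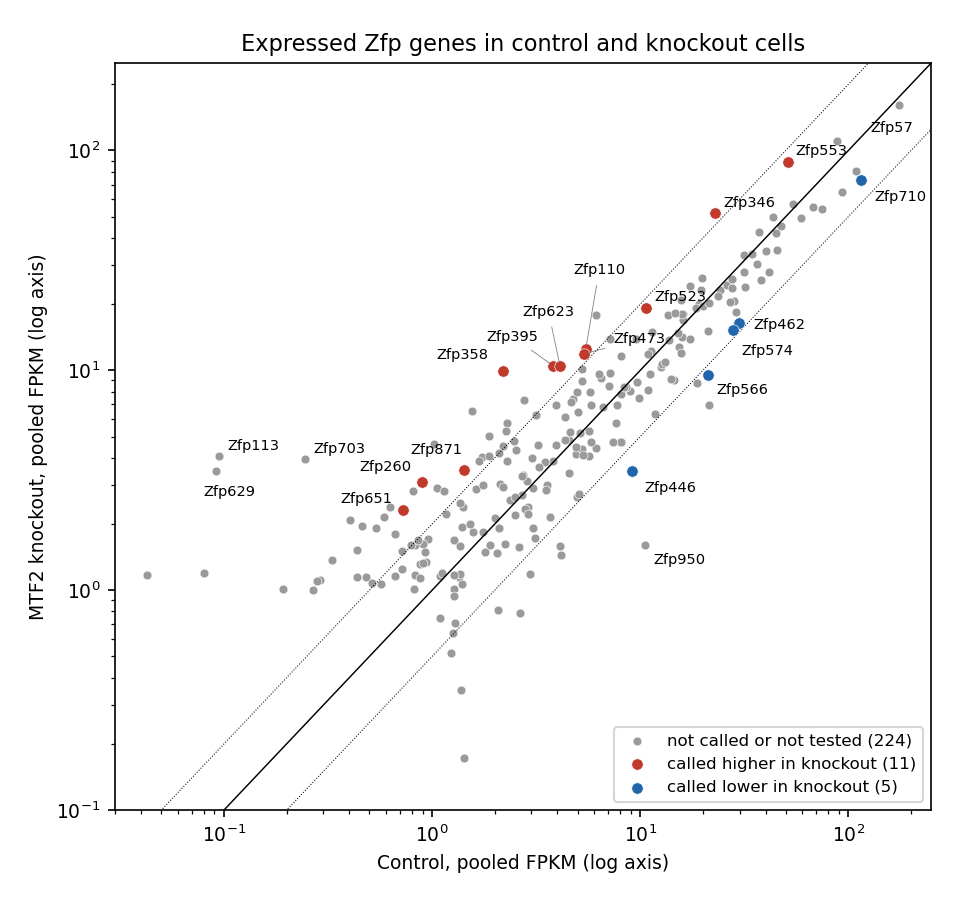
Control (x) against MTF2 knockout (y) pooled FPKM of the 240 expressed Zfp genes, both axes logarithmic; the solid line marks equal values and the dotted lines a 2-fold difference. The 11 genes called higher (red) lie above the solid line and the 5 called lower (blue) below it, and the cloud widens towards low FPKM, with Zfp113, Zfp629 and Zfp703 far above the line.

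The tilt towards higher values in the knockout was largest among weakly transcribed members. The selection admits a gene through either group alone, which fixes the sign of such a gene, and its part in the tilt was not tested. Of the 240, 39 reached 1 FPKM only in the knockout, 9 only in the control and 192 in both. Over those 192 the median log2 ratio was 0.01, beside -0.02 for all genes at 1 FPKM or more in both groups. By mean level the member medians were 0.51 below 2 FPKM (67 genes), 0.12 from 2 to 5 (61), 0.13 from 5 to 10 (42), -0.01 from 10 to 20 (32) and -0.15 at 20 and over (38). The medians of all expressed genes in the same ranges were 0.33, 0.14, 0.10, 0.02 and -0.13. At 20 FPKM and over, 28 of the 38 members were below 0, and the width between quartiles was 0.46, against 0.68 for all expressed genes there.

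**Figure D2:**
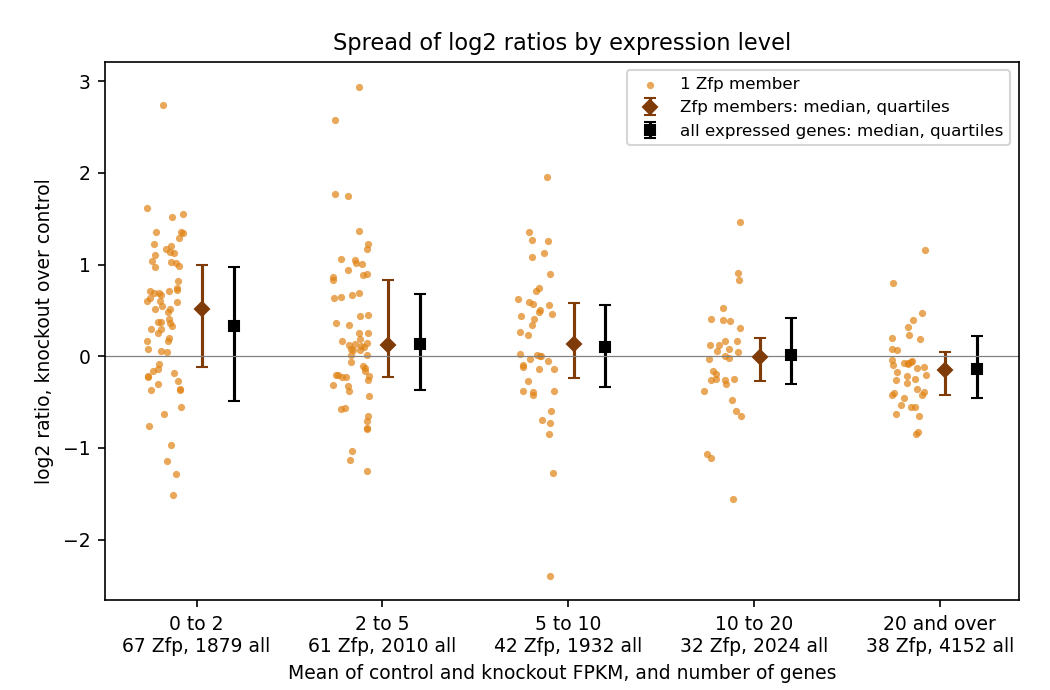
Log2 ratio of knockout over control (y) by mean FPKM range (x) for each Zfp member (points), with the median and quartiles of the members (diamonds) and of all expressed genes (squares). The medians fall from 0.51 to -0.15 for members and from 0.33 to -0.13 for all genes, and the spread of the members narrows as level rises.

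Just inside the threshold were Zfp617 (1.00 FPKM in its higher group), Zfp386 (1.01) and Zfp174 (1.02). Just outside were Zfp946 (0.981), Zfp329 (0.972) and Zfp467 (0.968). All 6 were higher in the knockout and none was tested in the authors' deposited table.

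Among the 11 members called higher, Zfp358 (chr8:3493138-3497208) had the largest ratio, rising from 2.19 to 9.92 FPKM, 4.54-fold (q = 0.00835 in the authors' deposited table). Its neighbourhood was raised as well: the 22 other expressed genes within 1 Mb had a median log2 ratio of 0.86, with 8 called higher and none lower. Zfp395 (chr14:65358676-65398930) rose from 3.80 to 10.5 FPKM, with the smallest q of any member in the authors' deposited table, 0.00120. The 17 expressed genes around it had a median of 1.80 and 11 of them were called higher, and the 403 other expressed genes of chromosome 14 had a median of 0.71, the highest of any chromosome. For these genes the ratio of the member and that of its surroundings point the same way, and a change of the single gene and one of its region cannot be told apart.

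Zfp346, which encodes a protein that binds double-stranded RNA, rose from 23.0 to 51.8 FPKM, while the 35 expressed genes around it had a median of 0.02. Zfp473, whose product takes part in histone pre-mRNA processing, rose from 5.36 to 11.9 FPKM. Zfp110, which encodes a binding partner of the neurotrophin receptor p75, rose from 5.47 to 12.5 FPKM. These 3 genes were well above the threshold in both groups, but Zfp346 and Zfp473 each share a locus entry with another gene. Zfp553, on chromosome 7, rose from 51.0 to 89.0 FPKM and was the most strongly transcribed member called higher. The other members called higher were Zfp260 (0.896 to 3.11 FPKM), Zfp623 (4.11 to 10.5), Zfp651 (0.723 to 2.32), Zfp871 (1.43 to 3.51) and Zfp523. Zfp260 and Zfp651 passed the selection only through their knockout value.

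Of the 5 members called lower, 4 lie on chromosome 7, which held 30% of the members. Zfp446 fell from 9.11 to 3.47 FPKM and Zfp566 from 21.2 to 9.55 FPKM (q = 0.0325 and 0.0184 in the authors' deposited table). Zfp574 fell from 28.0 to 15.3 FPKM and Zfp710 from 116 to 73.5 FPKM, with log2 ratios of -0.85 and -0.65. The fifth, Zfp462 on chromosome 4, fell from 29.7 to 16.5 FPKM; it encodes a large zinc finger protein that recruits the H3K9 methyltransferase G9a in ES cells. In control cells the lowest of these 5, Zfp446, stood above 8 of the 11 members called higher.

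The largest ratios of all belonged to genes that were not called. Zfp113 went from 0.0945 to 4.07 FPKM (log2 ratio 2.94, q = 0.331 in the authors' deposited table) and Zfp629 from 0.0918 to 3.47 (2.75). Zfp703, a repressor of the NET family, went from 0.245 to 3.95 (2.58), and the 14 expressed genes around it had a median of 0.91. Zfp819 (1.55 to 6.51), Zfp362 (1.02 to 4.62), Zfp672 (0.0428 to 1.17), Zfp521 (0.0801 to 1.20), Zfp345 (0.402 to 2.08) and Zfp688 (6.13 to 17.8) followed. Zfp113, Zfp629, Zfp703, Zfp672, Zfp521 and Zfp345 reached 1 FPKM only in the knockout, which fixed their sign, and Zfp672 and Zfp521 were not tested. At the other end, Zfp950 went from 10.6 to 1.61 FPKM (-2.40, q = 0.681 in the authors' deposited table), Zfp930 from 21.4 to 6.96 (-1.56), Zfp978 from 1.43 to 0.173 (-1.52) and Zfp963 from 2.64 to 0.791 (-1.28). Zfp820 (1.38 to 0.350), Zfp324 (4.09 to 1.59) and Zfp747 (18.7 to 8.72) also had log2 ratios between -1.14 and -1.06 without a call. Zfp978, Zfp963 and Zfp820 reached 1 FPKM only in the control, which fixed their sign. In all, 30 tested members had a log2 ratio of 1 or more in size without a call, 21 upwards and 9 downwards.

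None of the 7 members known as imprint or retrotransposon repressors was called, beside 12.9% of all tested genes. Zfp57, which protects methylation at imprinted regions, was the most strongly transcribed member, at 176 FPKM in control and 160 in knockout cells. Zfp445, which shares that task, measured 8.33 and 8.38 FPKM, and Zfp568, which silences a placental Igf2 promoter, 67.9 and 55.4. Zfp809, which recognises murine leukaemia virus, measured 15.6 and 20.9 FPKM. Zfp819 and Zfp266 (0.538 and 1.92 FPKM) were higher in the knockout and Zfp932, a repressor of endogenous retroviruses, lower at 4.14 and 1.45. The median log2 ratio of the 7 was 0.01, and the eighth gene on the list, Zfp708, was below the threshold.

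Of 9 members tied to pluripotency and early differentiation, 1 was called, the lower Zfp462. That is 12.5% of the 8 tested, beside 12.9% of all tested genes. Zfp281, a factor of ES cells needed for their exit from the naive state, measured 41.3 and 27.9 FPKM (q = 0.0622 in the authors' deposited table). Zfp296, a partner of KLF4, measured 59.0 and 49.5 FPKM, Zfp217 27.5 and 23.6, and Zfp706 15.3 and 12.8. Zfp219 (43.6 and 49.9), Zfp277 (4.74 and 7.37), Zfp143 and Zfp982 (0.331 and 1.37) lay above 0. The group's median was -0.22, with 4 members above 0 and 5 below.

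Among 10 listed developmental regulators, 5 were members and none was called, beside 12.9% of all tested genes. Besides Zfp703, the EBF partner Zfp521 was higher in the knockout but not tested, while its relative Zfp423 measured 17.3 and 13.9 FPKM. Zfp609, a partner of the cohesin loader, measured 40.4 and 34.9 FPKM, and Zfp516, a regulator of brown fat genes, 18.6 and 19.3. Zfp503, Zfp536, Zfp467, Zfp488 and Zfp608 did not reach 1 FPKM.

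None of 5 chromatin partners was called, beside 12.9% of all tested genes. The related proteins of Zfp592, Zfp687 and Zfp532 associate with ZMYND8, and their genes measured 7.19 and 9.72, 26.9 and 20.5, and 26.0 and 24.4 FPKM in control and knockout. Zfp827 measured 8.58 and 8.42 FPKM and Zfp335 14.01 and 9.10. The group's median was -0.09, with 1 gene above 0.

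Proteins that use their fingers for tasks other than DNA binding were among the highest members. Of 11 in RNA, ribosome or mitosis work, Zfp346 and Zfp473 were called higher and none lower, or 18.2%, beside 12.9% of all tested genes. Zfp622, a ribosome biogenesis factor, measured 88.1 and 110.2 FPKM, and Zfp598, the ubiquitin ligase that senses collided ribosomes, 74.5 and 54.1. The kinetochore protein gene Zfp207 stood at 54.5 and 57.3 FPKM, Zfp830 at 47.5 and 45.5 and Zfp106 at 44.7 and 42.3. Zfp593 (23.6 and 21.8), Zfp326 (15.2 and 14.8), Zfp638 (5.04 and 6.49) and Zfp36, which directs decay of AU-rich mRNAs (2.84 and 3.14), completed the group, whose median was 0.07. Of 4 further genes, the ubiquitin ligase Zfp91 measured 21.2 and 15.1 FPKM, the SUMO ligase Zfp451 19.2 and 19.9, Zfp330 37.4 and 42.6 and Zfp185 1.36 and 2.48, and none was called. The 5 highest members by control FPKM were Zfp57, Zfp710, Zfp64 (109 and 80.9), Zfp428 (93.5 and 64.6) and Zfp622, of which only Zfp710 was called.

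Of 14 listed genes for the corepressors that KRAB zinc finger proteins recruit, 3 were called, or 21.4%, beside 12.9% of all tested genes. Chd3, a NuRD remodeller, rose from 3.49 to 14.1 FPKM (q = 0.00120 in the authors' deposited table) and the deacetylase gene Hdac2 rose from 34.5 to 70.3. Atf7ip, which stabilises SETDB1, fell from 9.56 to 5.26 FPKM. Trim28 measured 563 and 380 FPKM (q = 0.0877 in the authors' deposited table), Cbx1 202 and 135, and Setdb1 18.5 and 24.2, none of them called. The list's median log2 ratio was -0.06, with 7 genes on each side of 0.

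Chromosome 7 held 72 members, 30% of all, and 8 of the 16 calls, 4 in each direction. Beside these 8 calls among 72 members, 7.51% of all tested members and 12.9% of all tested genes were called. The members of chromosome 7 had a median log2 ratio of 0.21, against -0.10 for the 926 other expressed genes of that chromosome. The members and the other genes were not matched for expression level, and some of the members reached 1 FPKM only in the knockout. Chromosome 17 had 20 members (median -0.03), chromosome 8 18 (-0.05) and chromosome 4 16 (0.18). In no chromosome with 10 or more members did the other expressed genes have a median beyond 0.10 in either direction.

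**Figure D3:**
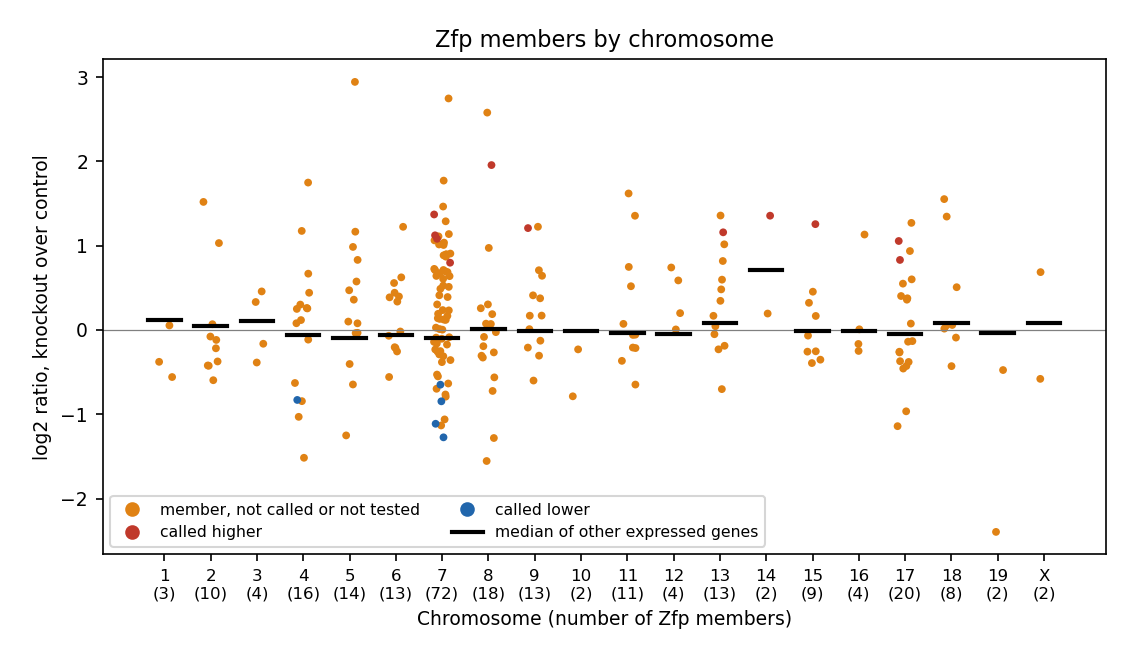
Log2 ratio of each Zfp member (points) by chromosome (x, with the number of members), with the median of the other expressed genes of that chromosome (black bars). Chromosome 7 carries calls in both directions, and the bar for chromosome 14, at 0.71, stands above those of the other chromosomes shown.

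A run was taken as members with gaps of at most 200 kb between neighbours. By the locus column, 116 members stood alone, 38 formed 19 pairs, and 86 formed 15 runs of 3 or more, 7 of these on chromosome 7 with 49 members. In 12 of the 15 runs most members lay above 0, in 2 runs all members had one sign, and 4 runs held a call, in 2 of them in both directions. The counts of signs and of pairs given here include members that passed the selection through 1 group only, which fixed their sign. The median of the run exceeded that of the other expressed genes within 1 Mb in 12 of the 15. Signs were nevertheless mixed along the chromosome: 46 of 90 neighbouring pairs within runs shared a sign, 51.1%, against 54.4% of 10228 pairs of neighbouring expressed genes of any name. Members in runs of 3 or more had a median of 0.25 and members alone 0.01. Run members were also lower, with a median of 2.69 FPKM in control against 5.25. Below a mean of 5 FPKM the median ratios were 0.51 in such runs and 0.20 outside them, beside 0.21 for all expressed genes, with 67.9% and 68.0% of members above 0. At 5 FPKM and over they were 0.12 and -0.09, beside -0.05, with 63.6% and 38.0% of members above 0. Of all expressed genes, 59.1% lay above 0 below a mean of 5 FPKM and 46.2% at 5 FPKM and over. Of the 86 run members, 63 were at 1 FPKM or more in both groups, where the median was 0.17, against -0.07 for the 129 other members of that kind.

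**Figure D4:**
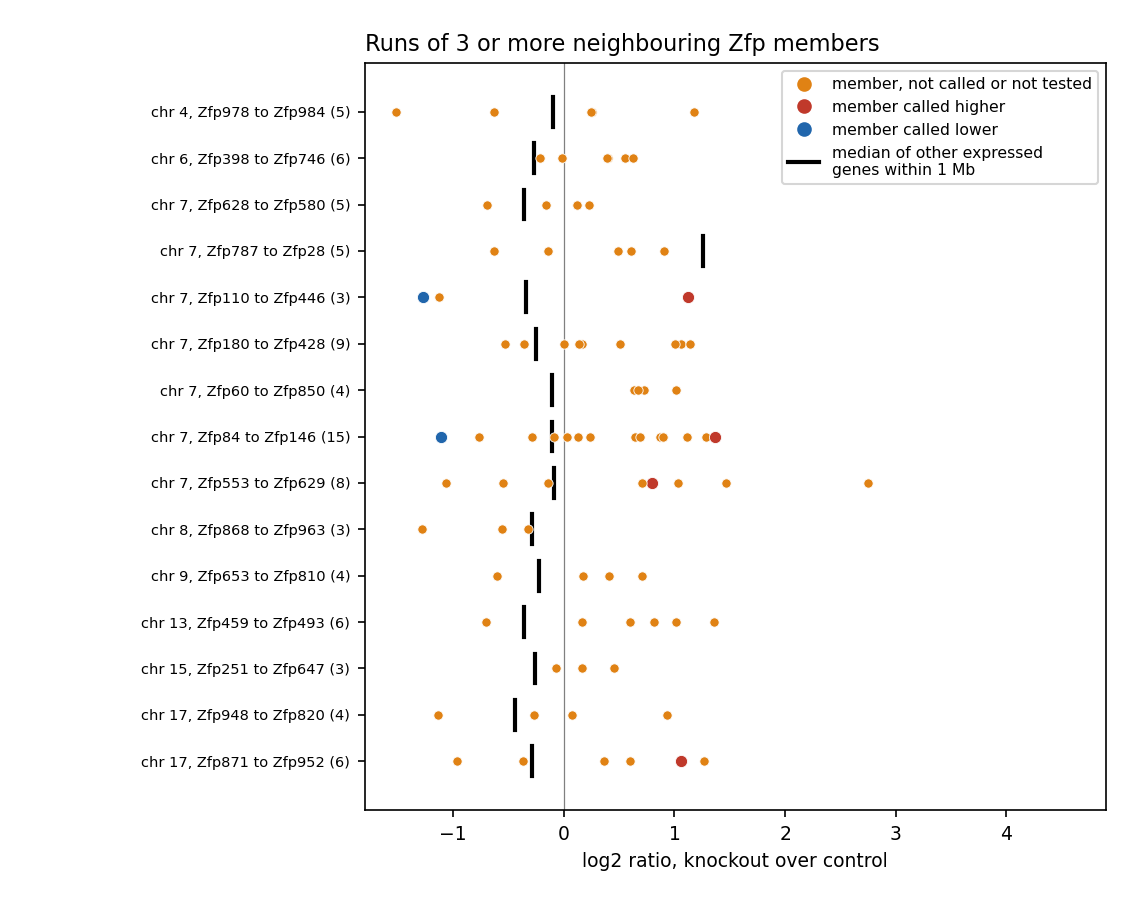
Log2 ratio (x) of each Zfp member in the 15 runs of 3 or more neighbours (rows, named by chromosome and first and last gene, with the number of members), with the median of the other expressed genes within 1 Mb (black bars). Only the runs Zfp60 to Zfp850 and Zfp868 to Zfp963 lie wholly on one side of 0, and 12 of the 15 runs have their median to the right of the bar.

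The longest run, 15 members at chr7:29768552-30169727, held both a call upwards and a call downwards. Zfp566 (21.2 to 9.55 FPKM) and Zfp260 lie next to each other with starts facing apart, and their promoters, printed above, both hold the ZNF143 core. Zfp566 shares its locus entry with Zfp82 (1.23 and 0.516 FPKM, not tested), so reads of these genes may not be fully separable. The low members of the run were mostly higher in the knockout: Zfp14 (0.584 and 2.15 FPKM), Zfp420 (0.435 and 1.52), Zfp30 (2.19 and 4.51), Zfp383 (2.09 and 4.23), Zfp940 (2.52 and 4.36) and Zfp790 (1.76 and 3.02). Zfp14, Zfp420 and the called Zfp260 entered only through their knockout value. Zfp74 went from 5.24 to 10.2 FPKM. The rest stayed closer to level, with Zfp84 at 5.66 and 5.29 FPKM, Zfp27 at 4.37 and 4.83, Zfp382 at 6.66 and 6.79, Zfp146 at 19.7 and 23.2, and Zfp568. Of the 15, 11 lay above 0 and their median was 0.64, while the 63 other expressed genes within 1 Mb had a median of -0.11. The summed FPKM of the run was 142 without and 139 with the knockout, the lower values of Zfp566 and Zfp568 standing against the higher values of the weakly transcribed genes.

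Nearer the centromere, the run of 4 at chr7:27731389-28014115 was the longest with a single sign, although Zfp60 and Zfp626 entered only through their knockout value, which fixed theirs. Zfp60 measured 0.513 and 1.08 FPKM, Zfp626 0.718 and 1.51, Zfp59 1.62 and 2.88, and Zfp850 1.14 and 2.82. Their log2 ratios ranged from 0.64 to 1.01 and none was called. The 58 other expressed genes within 1 Mb had a median of -0.11, 1 of them called higher and 6 lower.

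CpG-rich DNA is what Polycomb complexes favour, and 3 promoters of this run were alike in it, with 17 CpGs in Zfp60, 18 in Zfp59 and 17 in Zfp850, while Zfp626 stood apart. Those of Zfp626 and its neighbour Zfp59, the lowest and the highest, are shown with each CG in capitals, 250 bases before the start on the gene's strand.
Zfp626 (chr7:27806946-27807195, plus strand): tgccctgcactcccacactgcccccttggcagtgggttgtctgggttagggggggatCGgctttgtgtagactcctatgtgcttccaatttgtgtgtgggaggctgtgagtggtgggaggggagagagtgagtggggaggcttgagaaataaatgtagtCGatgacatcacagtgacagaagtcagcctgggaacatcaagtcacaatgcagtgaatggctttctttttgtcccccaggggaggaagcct
Zfp59 (chr7:27838334-27838583, plus strand): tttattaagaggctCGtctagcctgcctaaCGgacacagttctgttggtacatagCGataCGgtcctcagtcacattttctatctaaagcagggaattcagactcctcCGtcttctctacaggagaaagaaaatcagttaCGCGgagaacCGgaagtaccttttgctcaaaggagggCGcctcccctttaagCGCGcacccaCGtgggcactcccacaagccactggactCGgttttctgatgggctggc
The 300-base promoter of Zfp626 held 2 CpGs and that of Zfp59 18, while their ratios were 0.72 and 0.67. Member promoters had a median of 16 CpGs (quartiles 10 and 22), against 21 for all expressed genes, 9 for Zfp genes below 1 FPKM and 7 for all promoters. In runs of 3 or more the median was 12.5, elsewhere 17.5. The median log2 ratio was 0.19 in members with fewer than 10 CpGs (47 genes) and 0.17 with 10 to 19 (80). It was 0.17 with 20 to 29 (45) and 0.02 with 30 or more (24). In that order 1, 2, 3 and 3 members were called higher and 1, 1, 0 and 0 lower. Of all tested genes 6.9% were called higher and 6.03% lower. The ranges also differed in level, with median mean FPKM of 2.88, 3.21, 6.35 and 7.19. A link between CpG number and ratio was not tested. Promoters within a run were not close copies. Counted as 300 bases less the edit distance, identity had a median of 45.7% over the 239 pairs of members that share a run, and 2 pairs passed 70%, Zfp747 with Zfp764 at 86.0% and Zfp985 with Zfp979 at 83.7%. No value is given for pairs from different runs, so 45.7% cannot be set against the level of unrelated promoters.

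Further from the centromere on chromosome 7 (chr7:127233061-127615797), a run of 8 ranged from -1.06 to 2.75. Zfp553 was called higher, Zfp688 (q = 0.0566 in the authors' deposited table) and Zfp629 had larger ratios without a call, and Zfp768 (5.25 and 8.90 FPKM) and Zfp764 (0.279 and 1.10, not tested) also lay above 0. Zfp771 (37.8 and 25.7 FPKM), Zfp747 and Zfp689 (8.96 and 8.07) lay below it. Zfp764 and Zfp629 were at 1 FPKM or more only in the knockout, which fixed their sign. The 80 other expressed genes around the run had a median of -0.09.

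Zfp110, Zfp324 and Zfp446 form a run of 3 at chr7:12834761-12985714 in which the outer genes were called in opposite directions, Zfp110 higher and Zfp446 lower, with Zfp324 at -1.13. The gene for the KRAB corepressor Trim28 (chr7:13024152-13031035) lies just beyond this run and had a log2 ratio of -0.56. On chromosome 17 (32771236 to 33005457), the called Zfp871 led a run of 6 with Zfp799 (2.75 and 7.34 FPKM), Zfp811 (0.905 and 1.63), Zfp952 (0.934 and 1.34), Zfp870 (2.25 and 1.62) and Zfp472 (2.07 and 0.815). Its signs were divided 4 to 2. Zfp811 and Zfp952 were at 1 FPKM or more only in the knockout and Zfp472 only in the control, which fixed their signs.

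Further runs were picked out after their values were seen. At chr7:24081924-24515682, 9 members had a median of 0.17 and surroundings of -0.25; Zfp111 (2.27 and 5.29 FPKM), Zfp109 (1.68 and 3.88) and Zfp93 (1.05 and 2.91) were higher in the knockout, and 5 of the 9 promoters hold the ZNF143 core. On chromosome 13 (67405722 to 67792512), 5 of 6 members lay above 0, led by Zfp459 (0.628 and 2.39 FPKM), 3 of the 6 entering only through their knockout value, with a median of 0.71 against -0.36 for 9 genes around them. Only the run of 3 on chromosome 8 (69610857 to 69807749) lay wholly below 0, with Zfp868 at 3.06 and 1.91 FPKM, Zfp866 at 5.30 and 4.12 and Zfp963, and its 52 neighbours had a median of -0.29. Zfp866 and Zfp963 share a locus entry, as do 25 members in all with some other gene. Clustered zinc finger genes are near copies of each other, so reads may have been split among them; the labels do not say how such reads were treated.

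Other zinc finger families served as comparison. Of 36 expressed Zbtb genes, 34 were tested, Zbtb2 was called higher and Zbtb45 and Zbtb40 lower, and their median log2 ratio was 0.03. Of 18 expressed Zscan and Zkscan genes, 17 were tested, none was called and the median was 0.16. The called share of tested genes was 7.51% in the members, 8.82% in the Zbtb genes and 12.9% over all tested genes.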

How the data were processed

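RNA-seq of 3 control and 3 MTF2 knockout libraries of E14 ES cells was analysed from 1 table of 22462 genes. Per the file headers, the authors' FPKM values pool each group, and the log2 fold changes, p-values, q-values and test statistic scores beside them are those the authors deposited from Cuffdiff. No column holds a single library, so samples could not be compared within a group and depth and spread are unknown. The submitters' processing notes name Bowtie 1.0, TopHat2 2.1.0, Cuffdiff 2.2.1.3 and deepTools, and the builds mm9 and mm10, without roles. All 240 member symbols were in RefSeq GRCm38.p6 on the same chromosome as in the table, 231 with an end within 2 kb, so positions are given as mm10. A call is the authors' q at or under 0.05 over 11362 tested genes. Log2 ratios were computed from the FPKM with 0.5 added (Python 3.11.15, pandas 2.3.3); run detection and counting were tested on simulated data. Promoters came from RefSeq (250 bases before to 50 after the first listed start). The text names every called member, the 10 largest ratios in each direction, runs of 4 or more with a call or 1 sign, role groups and the 5 highest; other genes were picked after their values were seen. Members and lists were chosen with earlier results of these data known. Alternatives were other thresholds, pseudocounts, symbols, loci and distances.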

Additional observations from a re-analysis of the deposited data

How the results depend on the processing

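The count of members called higher, 11, was 5 at q of 0.01 or less and 0 when p was taken from the deposited test statistic by the normal distribution and adjusted over all tested genes. The count called lower, 5, was 0, 2 and 0 at q of 0.01 or less, at 2-fold or more and by the normal p; all other alternatives kept both counts within 1.5 times. The median log2 ratio, 0.0889, was 0.106 and 0.0808 with pseudocounts of 0.1 and 1, and 0.0787, 0.0209 and -0.0447 with FPKM minimums of 0.5, 2 and 5, so its sign turned at 5. It was 0.0709 with a minimum of 1 on the mean of the groups, 0.0988 with lettered symbols and Zfp42 added and 0.123 without shared loci. With alternatives chosen after seeing the data it was 0.118 without chromosomes 8 and 14 and 0.00798 for members at 1 FPKM or more in both groups; these alternatives differ in which genes they hold. The share of neighbouring pairs with 1 sign, 51.1%, ran from 42.3% to 55.7%. No paired analysis was possible because the table holds 1 pooled value per group, which also prevents leaving out a library. Precision at low FPKM is limited by a depth that is unknown.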

Other observations

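The Zfp symbols that end in a letter, which the symbol rule leaves out, numbered 29, and 12 of them reached 1 FPKM. None of the 11 tested was called; their median log2 ratio was 0.35, with 9 of the 12 above 0. Zfp42 (Rex1), a marker of naive ES cells, measured 725 FPKM in control and 492 in knockout cells, with q = 0.0743 in the authors' deposited table. The 125 numbered Zfp genes that stayed below 1 FPKM in both groups summed to 28.8 FPKM in control cells, and none was tested.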
